A study of Mus musculus with 42 samples.

Results

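The right heart field was compared between embryos with a heterotaxy pattern of asymmetric gene expression and embryos with a situs solitus pattern. Situs solitus is the normal arrangement of the organs between left and right, and heterotaxy is a discordant one. Of 42 libraries from 21 mouse embryos, the 16 right libraries of 16 embryos entered the comparison, 6 of heterotaxy embryos and 10 of situs solitus embryos. At E8.5i, when the heart tube is looping, the heart field was microdissected without head, back, heart tube and posterior trunk and was cut along the midline, so that each embryo gave a left and a right sample. The line carries the lnks allele of *Ccdc40*, a nonsense mutation induced by ENU on a C56Bl6J background, and *Ccdc40* encodes an assembly factor of motile cilia. The heterotaxy group held 6 *Ccdc40* lnks/lnks mutants, 4 males and 2 females. The situs solitus group held 5 *Ccdc40* lnks/lnks mutants and 5 *Ccdc40*+/+ wild types, in all 6 males and 4 females. The heart loop was directed to the right in the embryos of both groups. The embryos were selected on measured values: the study clustered them by the right minus left differences of genes that are asymmetric in wild types, so the right libraries took part in forming the groups. The p-values below therefore measure the gap between groups against the spread between these embryos and give no independent support to the grouping.

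The heart field is the mesoderm that lies behind the heart tube and adds cells to both of its ends while it loops. On the left side of the embryo, NODAL signalling follows the leftward fluid flow that motile cilia generate at the node, and it is active for a short time. Signals of the WNT, BMP, FGF and hedgehog families act in the heart field of both sides, and some of their components are stronger on one side.

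Libraries held 37517697 to 49787293 gene-assigned reads in right heterotaxy samples (median 42461690) and 36572530 to 53644892 in right situs solitus samples (median 43639087). *Ccdc40* itself was measured at 16.1, 21.1 and 26.5 CPM (read counts scaled to a common library size; lowest, median and highest) in the right libraries of the 5 wild types and at 8.89, 12.5 and 14.6 CPM in the 16 mutants of the whole series. The groups did not overlap (exact permutation test, two-sided, p = 4.91e-05, the smallest that 20349 arrangements allow). The right libraries of 3 embryos stood apart. That of heterotaxy embryo 15_5 had 246 genes more than 4-fold above the other heterotaxy embryos, against 5 to 34 for each of those, and its left sample was high for the same leading genes (*Hoxa10*, 114 CPM right and 90.2 left; *Tdo2*, 293 and 224). The library of situs solitus mutant 2_2 had 167 genes more than 4-fold below the other situs solitus embryos, cardiac genes among them (*Hand1*, 1.56 CPM right against 29.3 left; *Gata4*, 2.51 against 18.1; *Myh6*, which encodes a myosin heavy chain of the sarcomere, 7.07 against 69.3). The left sample of 2_2 was also below the other left samples for *Hand1*, *Gata4* and *Myh6*, of which the lowest were 45.9, 51.0 and 341 CPM. The library of situs solitus wild type 10_1 had the highest summed level of neural tube and somite markers. Where a count over a gene list moved by more than 1.5 times, or to or from 0, with 1 of these 3 libraries left out, the count without that library is given beside it. These refits cover the right comparison with all situs solitus embryos. Counts on the left, or against situs solitus mutants alone, which include 2_2, were not refitted in this way. In tissue pieces, fewer cells of a type cannot be told apart from less RNA per cell.

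No gene differed between heterotaxy and situs solitus in the right heart field at an adjusted p under 0.05. By the quasi-likelihood test of edgeR with sex in the model, 0 of 23674 genes passed (0%), and the smallest adjusted p was 0.594. Before adjustment, 1870 genes had a p under 0.05, 1134 higher in heterotaxy (4.79% of all tested) and 736 lower (3.11%). In refits with 1 library left out, these counts were 918 and 608 without 15_5, 952 and 706 without 2_2, and 912 and 545 without 10_1. The scaling of the libraries sets the median log2 fold change over all genes near 0 (0.00). DESeq2, the tool with which the study compared levels on each side, called 15 of 15793 genes with an adjusted p (0.095%), 13 higher and 2 lower, and had 2231 genes at an unadjusted p under 0.05. All 15 had an adjusted p of 0.0444 or 0.045, close to the threshold. Genes whose level in the lowest heterotaxy embryo exceeded that in the highest situs solitus embryo numbered 8 (0.0338%), and 1 gene was lower in the same sense (0.00422%). Unless a DESeq2 call is stated, no gene named below passed its test, and the words higher and lower describe the fitted fold change. The gene lists were chosen with earlier results of these data known, so counts over them are no independent evidence.

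**Figure D1:**
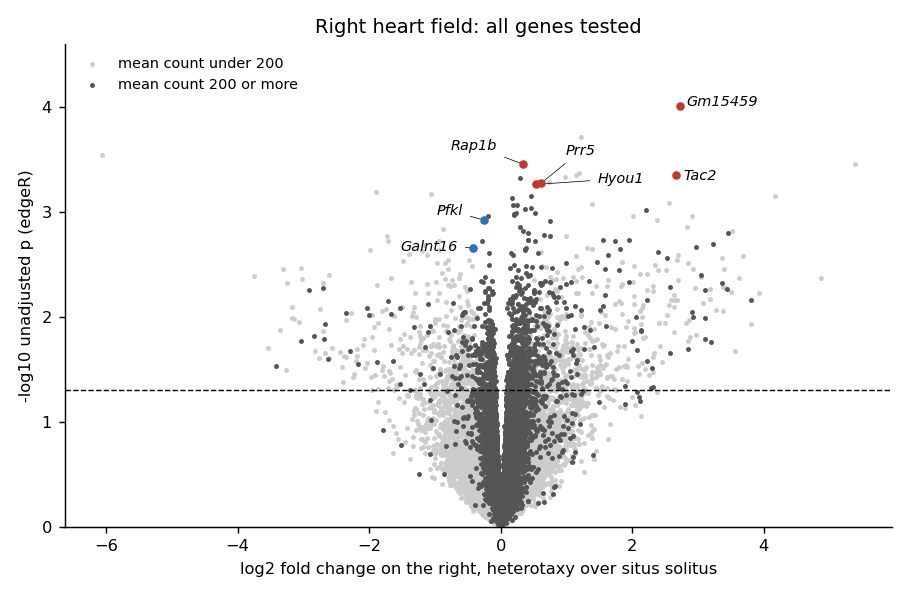
Log2 fold change on the right (heterotaxy over situs solitus, horizontal axis) against −log10 of the unadjusted edgeR p (vertical axis) for 23674 genes, with genes of at least 200 mean counts in dark grey and the dashed line at p = 0.05. The named genes are among the 16 with the smallest p and at least 200 counts, and none of the points passed after adjustment over all genes.

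The genes ranked first with at least 200 mean counts were *Gm15459*, *Rap1b*, *Tac2*, *Ppp1r18*, *Prr5*, *Hyou1*, *Cdon* and *Rab2a* on the higher side. *Gm15459* (chromosome 5, 5831615 to 5833555, minus strand, GRCm39) was at 19.4, 142 and 323 CPM in heterotaxy against 16.6, 24.3 and 36.8 CPM in situs solitus (lowest, median and highest; n = 6 and 10, as throughout). It was high in 3 heterotaxy embryos, at 260 CPM in 15_5, 323 in 18_1 and 318 in 3_7, and in the range of situs solitus in the other 3. The left samples of the same 3 embryos were also high, at 275, 350 and 319 CPM, and the log2 fold change was 2.72 ± 0.54 (SE) on the right and 2.78 on the left. *Gm15459* is a processed pseudogene of *Hspa8*, a constitutive heat shock chaperone, and 91.9% of its 31-base words also occur in *Hspa8* transcripts. Its counts are therefore uncertain where reads could be split between the copies. *Hspa8* itself (chromosome 9, 40711630 to 40731039) was at 1668, 2227 and 2461 CPM in heterotaxy against 2038, 2522 and 3498 CPM, with overlapping groups and a log2 difference of −0.24 ± 0.10.

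*Rap1b*, a small GTPase of integrin-dependent adhesion, was at 38.6, 48.3 and 52.0 CPM in heterotaxy against 31.3, 36.9 and 43.0 CPM. The groups overlapped at one end, and the log2 fold change was 0.34 ± 0.08 on the right and −0.03 on the left. *Prr5*, a subunit of the mTORC2 kinase complex, was at 9.46, 10.6 and 13.6 CPM against 4.78, 7.25 and 9.56 CPM, so that the ranges met only at their edges. Its log2 fold change was 0.61 ± 0.14 on the right and −0.31 on the left of the same embryos. *Rab2a*, a GTPase of traffic between endoplasmic reticulum and Golgi, was at 51.1, 54.6 and 59.3 CPM against 45.5, 48.6 and 50.7 CPM. These groups did not overlap, although the difference was small (log2 0.17 ± 0.04). *Cdon*, a cell surface co-receptor of hedgehog ligands, was at 11.4, 15.2 and 17.6 CPM against 8.89, 10.3 and 14.1 CPM, with some overlap and a log2 fold change of 0.46 ± 0.11. *Ppp1r18*, an actin-binding partner of protein phosphatase 1, was at 42.4, 45.8 and 57.7 CPM against 35.2, 39.1 and 43.2 CPM (log2 0.29 ± 0.07), with a narrow overlap.

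*Tac2*, the precursor of the neuropeptide neurokinin B, was at 1.79, 4.19 and 43.1 CPM in heterotaxy against 0.264, 1.19 and 2.87 CPM. The highest value was that of 15_5, and the log2 fold change of 2.67 ± 0.61 was 1.37 without this embryo. *Hyou1*, a chaperone of the endoplasmic reticulum (chromosome 9, 44290418 to 44303666), was at 97.0, 131 and 184 CPM against 67.0, 92.5 and 112 CPM. The 3 highest embryos were those high for *Gm15459* (15_5 at 144 CPM, 18_1 at 184 and 3_7 at 163), also on the left (147, 204 and 152). The log2 fold change of *Hyou1* was 0.54 ± 0.13 on the right and 0.52 on the left. Against the 5 situs solitus mutants alone, these 8 genes kept their direction, with log2 fold changes from 0.19 (*Rab2a*) to 2.81 (*Gm15459*). DESeq2 called 7 of the 8, all but *Cdon* (adjusted p = 0.0508).

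The genes ranked first on the lower side were *Zranb3*, *Pfkl*, *Tctn2*, *Galnt16*, *Stxbp4*, *Pold1*, *Pomk* and *Wwox*, and their differences were small. *Zranb3*, a DNA translocase acting at stalled replication forks, was at 38.8, 41.0 and 45.4 CPM in heterotaxy against 42.3, 48.0 and 49.6 CPM. The ranges overlapped, the log2 fold change was −0.19 ± 0.05, and DESeq2 called this gene. *Pfkl*, a phosphofructokinase of glycolysis, was at 873, 927 and 971 CPM against 947, 1062 and 1365 CPM, overlapping at one end (log2 −0.26 ± 0.07). *Tctn2*, a component of the transition zone at the base of the cilium, was at 14.3, 16.5 and 18.0 CPM against 16.7, 19.1 and 24.1 CPM (log2 −0.28 ± 0.08). *Galnt16*, an enzyme of O-glycosylation, had the largest difference of the 8, with 12.6, 14.2 and 17.2 CPM against 15.0, 19.2 and 24.7 CPM (log2 −0.42 ± 0.12). The other 4 overlapped as well. The log2 fold changes were −0.18 for *Stxbp4* (syntaxin binding protein), −0.18 for *Pold1* (catalytic subunit of DNA polymerase delta), −0.23 for *Pomk* (a kinase of the dystroglycan glycan) and −0.31 for *Wwox* (a WW domain oxidoreductase). On the left, the 8 log2 fold changes lay between −0.10 and 0.01.

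**Figure D2:**
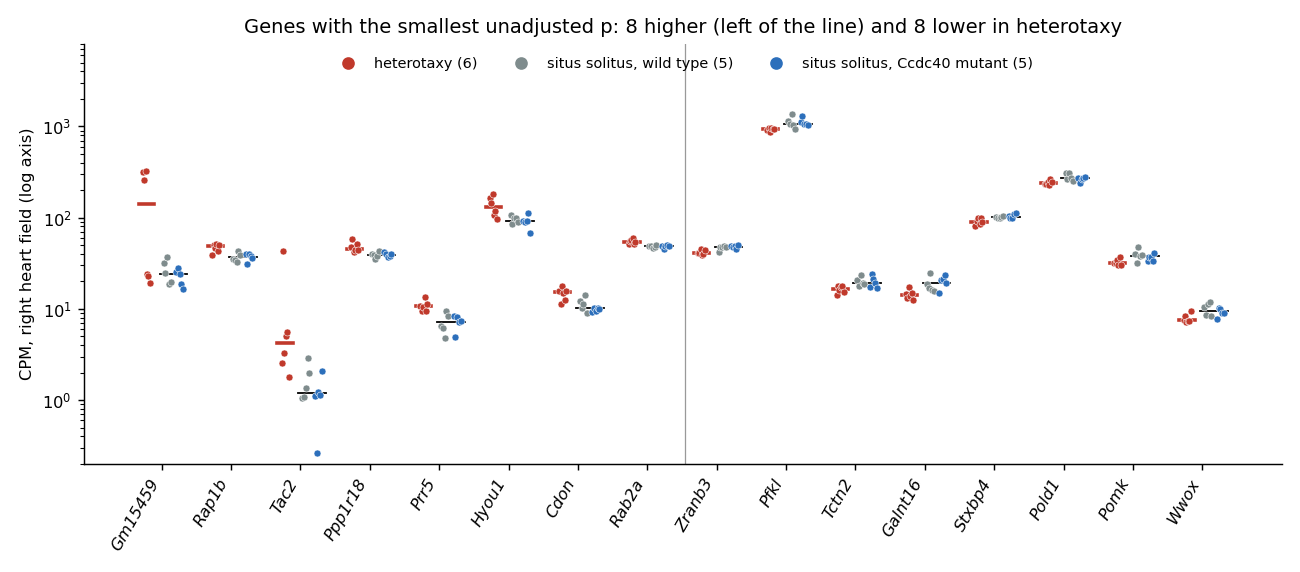
Right CPM per embryo (log axis) of the 16 genes ranked by unadjusted p among those of at least 200 counts, with heterotaxy embryos in red, situs solitus wild types in grey, situs solitus mutants in blue, and bars at the group medians. *Gm15459* split the heterotaxy embryos into 3 at 260 to 323 CPM and 3 in the range of situs solitus, whereas *Rab2a* did not overlap between groups.

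Genes called by DESeq2 or without overlap that lie outside this ranking were named after their values were seen. Of the 15 calls, 7 had under 200 mean counts or a larger unadjusted p than the genes above. *Rec114*, a gene of meiotic recombination on chromosome 9 (58560133 to 58651247), was at 1.20, 2.30 and 4.07 CPM against 0.441, 1.11 and 2.13 CPM, again highest in 15_5, 18_1 and 3_7. *Tgm1*, a transglutaminase that cross-links epithelial proteins, was at 3.20, 3.59 and 8.54 CPM against 1.00, 1.86 and 3.17 CPM, without overlap (log2 1.14 ± 0.26). *Cdc42ep2*, an effector of the GTPase CDC42 in actin assembly, was at 3.05, 3.57 and 4.24 CPM against 1.15, 2.03 and 2.99 CPM, also without overlap (log2 0.73 ± 0.17). *Tln1*, which links integrins to actin, was 156, 166 and 174 CPM against 126, 147 and 160 CPM, with a small overlap (log2 0.18 ± 0.05). The remaining calls were *3830403N18Rik* (log2 0.98), *Tnfaip8l3* (1.39) and, on the lower side, the glycosyltransferase *Mgat5b* (−1.06), all at median levels under 2 CPM. The other genes without overlap were *Epn3*, an endocytic epsin (8.00, 8.90 and 9.95 CPM against 4.71, 6.82 and 7.88), *Ripor3* (log2 0.64), *Ube2a* (0.11), *B3gnt2* (0.51) and *Shisal2b* (1.22) on the higher side and the small nucleolar RNA *Gm23297* (−0.91) on the lower side.

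Genes that the study named for their asymmetry in these embryos are given next as values. Those that also belong to a list below, *Ccn4*, *Sfrp2*, *Wnt16*, *Fzd10* and *Bmp2* among them, enter its fitted values and counts, which for these genes are a description and no independent evidence. *Lefty2*, a target and antagonist of NODAL, was at 0.319, 0.695 and 3.13 CPM on the right in heterotaxy and at 0, 0.422 and 2.39 CPM in situs solitus, both low. Its left level was 1.47, 3.91 and 15.5 CPM against 0.773, 1.60 and 5.05 CPM.

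The study picked 8 genes for asymmetries that differed between its clusters, and their right levels follow. *Ccn4*, *Postn* and *Pitx1* were also among the genes whose right minus left differences formed the clusters. Their right levels therefore took part in the grouping. *Ccn4*, a matricellular protein and WNT target, was at 13.9, 16.1 and 20.7 CPM on the right in heterotaxy, against 1.98, 9.55 and 16.8 CPM on the right and 5.65, 20.7 and 31.4 CPM on the left in situs solitus. *Postn*, which encodes the matrix protein periostin, was at 14.8, 29.3 and 41.8 CPM on the right in heterotaxy. In situs solitus it was at 7.79, 21.9 and 60.7 CPM in wild types and at 1.10, 9.07 and 14.1 CPM in mutants. *Retreg1*, a receptor of autophagy at the endoplasmic reticulum, was at 5.81, 6.36 and 9.90 CPM against 2.09, 3.43 and 7.77 CPM, with few embryos overlapping. *Misp3* was at 5.30, 6.25 and 12.4 CPM against 0.837, 3.67 and 7.50 CPM. *Pitx1*, a homeobox gene, was at 1.17, 3.72 and 5.20 CPM against 1.10, 1.52 and 8.38 CPM. The spread within each group was as large as the gap for *Pitx1*, and on the left it was lower in heterotaxy (1.78, 2.06 and 3.60 CPM against 2.63, 4.61 and 10.7 CPM). *Hspb8*, a small heat shock protein, reached 70.5 CPM on the right of 15_5 and lay at 6.81 to 15.0 CPM in the other heterotaxy embryos, against 3.72 to 9.58 CPM. *Trabd2b*, an inhibitor of WNT ligands (4.70, 6.90 and 8.25 CPM against 3.37, 6.01 and 7.98 CPM), and the prostaglandin receptor gene *Ptgfr* (4.45, 5.36 and 6.47 CPM against 4.78, 6.34 and 7.05 CPM) overlapped over most of their range. Of the 20 asymmetric genes named in the text of the study, 15 had a positive log2 fold change on the right, with a median of 0.28, and since that list was chosen on these samples the count is no independent evidence of a direction.

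**Figure D3:**
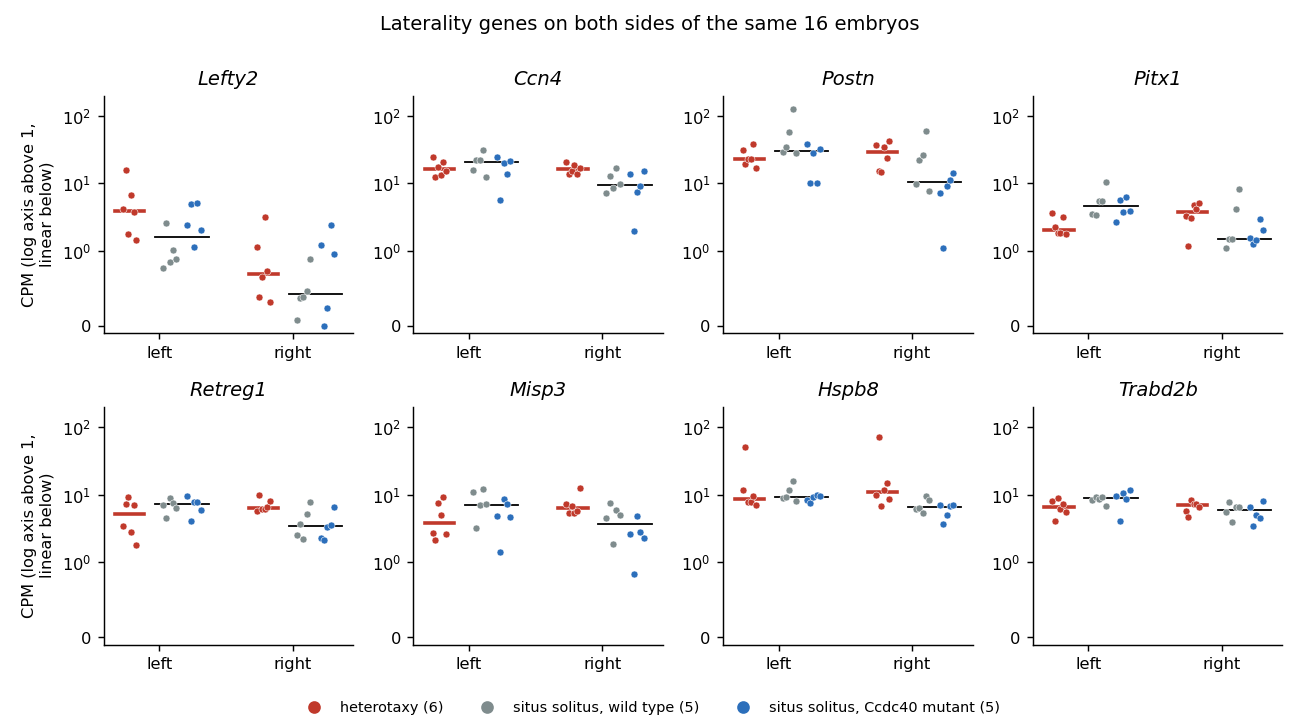
CPM of 8 laterality genes (vertical axes, logarithmic above 1 and linear below) in the left and right samples of the same 16 embryos, with red for heterotaxy, grey for situs solitus wild types, blue for situs solitus mutants, and bars at the medians of heterotaxy and of all situs solitus embryos. *Ccn4* and *Postn* had higher right medians in heterotaxy (16.1 and 29.3 CPM) than in situs solitus (9.55 and 10.5 CPM). Both were among the genes that formed the groups, so this is a description and no independent evidence.

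Few components of NODAL signalling were past an unadjusted p of 0.05 on the right. Of 24 listed genes 20 were tested, among them a co-receptor, receptors, SMADs, antagonists and targets. The ligand genes *Nodal*, *Gdf1* and *Gdf3* and the co-receptor gene *Tdgf1* were not tested. The median log2 fold change was 0.08 (0.05 without 15_5), in a range from −0.38 for the NODAL inhibitor gene *Ism1* to 0.69 for *Lefty2*. Of the 20, 1 was higher at an unadjusted p under 0.05 and 0 were lower. That gene was *Furin*, a protease that processes precursors of the TGF-beta family, at 22.1, 23.0 and 30.7 CPM against 12.9, 21.2 and 25.4 CPM. Its groups overlapped (log2 0.27 ± 0.11), and 0 of 20 genes were at that level without 15_5. *Cfc1*, which encodes the NODAL co-receptor CRYPTIC, was at 3.12, 3.58 and 7.62 CPM against 0.727, 3.04 and 6.38 CPM, also overlapping.

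WNT ligands ranged widely. Of 18 tested, 2 were higher and 1 was lower at an unadjusted p under 0.05 (11.1% and 5.56%), with a median log2 fold change of 0.14 (0.07 without 2_2). The counts were 1 and 0 without 15_5 and 2 and 0 without 2_2. *Wnt6*, a ligand of epithelia and heart field mesoderm, was at 30.4, 35.1 and 40.3 CPM in heterotaxy against 12, 21.6 and 38.4 CPM in situs solitus. The heterotaxy embryos lay at the upper end of the other group, and the log2 fold change was 0.57 ± 0.16 on the right and −0.18 on the left. Against situs solitus mutants alone, at 12 to 24.8 CPM, it was 0.85 ± 0.16 on the right. *Wnt10a* was at 5.42 CPM in 15_5 and below 1 CPM in the medians of both groups (0.408 and 0.268). Its log2 fold change of 2.03 was 0.67 without 15_5. *Wnt16* was lower (log2 −0.82), at medians of 0.652 and 0.747 CPM, and its highest value was that of 2_2 (2.40 CPM). *Wnt11*, an asymmetric ligand in the study, was at 1.73, 2.41 and 3.77 CPM against 0.573, 2.04 and 3.54 CPM.

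Among 18 WNT receptors, 2 were higher and 1 was lower, with 4 higher when 15_5 was left out and 1 higher when 2_2 or 10_1 was. *Fzd5* was at 1.45, 1.84 and 2.06 CPM against 0.727, 1.40 and 1.72 CPM (log2 0.43 ± 0.18). *Fzd10* was at 1.39, 1.80 and 3.66 CPM against 1.70, 3.09 and 10.8 CPM (log2 −0.93 ± 0.35), and its highest value was that of 10_1. Of 16 secreted modulators and secretion factors, 4 were higher (25%) and 2 were lower. *Dkk2*, a secreted WNT antagonist, was at 1.74, 4.38 and 5.99 CPM against 0.551, 1.74 and 5.17 CPM, with wide overlap (log2 0.97 ± 0.44). *Sfrp2*, another antagonist, and *Porcn*, the enzyme that lipidates WNT ligands, were lower (log2 −0.60 and −0.63, and −0.41 and −0.37 without 10_1), and 10_1 was their highest library (70.9 and 33.3 CPM). The counts of modulators depended on single embryos, with 0 higher and 1 lower without 15_5, 1 and 1 without 2_2, and 3 and 0 without 10_1. Of 14 canonical WNT targets, 1 was higher and 1 was lower, and the higher one was *Ccn4*, which the study picked on these samples. In the planar cell polarity list (16 genes) 1 was higher, *Daam1* (log2 0.22), and 2 were lower, the cadherins *Celsr2* (9.64, 11.2 and 14.8 CPM against 9.47, 16.2 and 30.7; log2 −0.49) and *Celsr3* (log2 −0.75). Leaving out 15_5 gave 0 higher in that list, and leaving out 2_2 gave 3 lower.

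BMP genes were placed slightly above the midpoint. Of 16 ligands and antagonists, 14 had a positive log2 fold change, 2 were at an unadjusted p under 0.05, both higher, and the median was 0.20. That count was 1 without 15_5, 1 without 2_2 and 0 without 10_1. *Bmp4*, a ligand of lateral mesoderm, was at 57.0, 69.7 and 79.5 CPM against 32.2, 58.6 and 82.4 CPM (log2 0.33 ± 0.16). *Gdf6* was at 2.42, 5.46 and 6.11 CPM against 0.573, 2.82 and 5.95 CPM (log2 0.78 ± 0.35), with 15_5 lowest among the heterotaxy embryos. *Bmp2* was at 30.4, 36.3 and 69.7 CPM against 9.56, 32.0 and 42.6 CPM (log2 0.56 ± 0.27), and its highest value came from 15_5, without which the log2 fold change was 0.34. All 3 ranges overlapped. Of 10 response genes, 2 were higher, with a median of 0.21, and 1 of 10 was higher with 15_5 or 10_1 left out. *Msx2*, a homeobox target of BMP, was at 37.6, 45.2 and 53.1 CPM against 13.4, 30.8 and 45.0 CPM, with log2 0.59 ± 0.18. *Hand1*, a transcription factor of the heart and of extraembryonic mesoderm, was at 75.7, 91.7 and 125 CPM against 1.56, 52.2 and 102 CPM (log2 0.93 ± 0.44), and the lowest value was that of 2_2. Against situs solitus mutants alone, 5 of 10 response genes and 5 of 16 ligands and antagonists were higher at an unadjusted p under 0.05. Of all genes, 4.22% were higher and 2.86% lower there. These mutants include 2_2, and the fit was not repeated without it. In the same comparison 8 of 11 markers of extraembryonic mesoderm and amnion, a list that holds *Bmp4* and *Hand1*, and 7 of 14 of yolk sac visceral endoderm were higher, and the part of these tissues in the BMP genes was not tested. On the left, 0 of 16 ligands and antagonists were higher and 3 were lower (median −0.04), and 0 of 10 response genes were past that level, where 2.22% of all genes were higher on the left and 2.92% lower. The situs solitus mutants were at 13.4 to 32.4 CPM for *Msx2* on the right, and the log2 fold change against them was 0.93 ± 0.19. *Smad7*, a feedback inhibitor, was at 10.3, 11.1 and 16.2 CPM against 4.49, 10.2 and 13.1 CPM.

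Of 21 FGF ligands, receptors and ERK response genes, 0 were past an unadjusted p of 0.05 in either direction, with a median log2 fold change of 0.07 (0.10 without 15_5 and 0.01 without 10_1), and 1 was higher without 15_5 and 1 lower without 2_2. The hedgehog list (14 genes) had 1 higher, *Cdon*, and 2 lower, and 3 were higher without 15_5. In the Notch list (18 genes) 0 were higher and 3 were lower (16.7%). *Hes5*, a Notch target of neural progenitors, was at 0.977, 2.18 and 20.9 CPM against 0.678, 23.1 and 116 CPM. The heterotaxy embryos lay within the range of situs solitus, of which 1_6, 22_1 and 22_4 were as low (0.678, 1.09 and 1.48 CPM), and the log2 fold change was −2.67 ± 0.94. *Lfng* and *Dll1*, a modifier and a ligand of Notch, had log2 fold changes of −1.02 and −0.92, the latter −0.60 without 10_1. The summed level of neural tube markers, a list that itself holds *Hes5*, moved with these 3 genes, and its part in them was not tested. With 10_1 or 15_5 left out 1 of 18 was lower. The retinoic acid list (18 genes) had 2 higher and 1 lower, or 1 and 0 without 15_5. *Rarg*, a receptor, was at 37.6, 39.9 and 41.6 CPM against 24.2, 34.2 and 43.0 CPM (log2 0.24 ± 0.10). *Crabp2*, a binding protein, was at 144, 182 and 240 CPM against 147, 252 and 729 CPM (log2 −0.66 ± 0.27, and −0.41 without 10_1, the highest). *Aldh1a3*, an enzyme of retinoic acid synthesis, was at 6.55 CPM in 15_5 and at 0.98 CPM in the median of its group (log2 1.05, and 0.21 without 15_5).

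Of 27 *Hox* genes tested, 9 were higher at an unadjusted p under 0.05 (33.3%) and 2 were lower (7.41%), with a median log2 fold change of 0.34 (0.21 without 2_2 and 0.57 without 10_1). The members with the largest differences were posterior ones, and their highest values came from a single library. *Hoxa10* was at 0.393, 1.87 and 114 CPM in heterotaxy against 0.392, 1.48 and 2.95 CPM, and 15_5 (114 CPM), 23_3 (13.4) and 19_4 (3.15) lay above the highest situs solitus embryo while the other 3 lay within the range of that group. The log2 fold change of 3.44 ± 1.08 was 1.27 without this embryo. *Hoxd10*, *Hoxd9* and *Hoxa9* reached 24.7, 6.50 and 11.9 CPM in 15_5 against medians of 0.322, 0.402 and 0.557 CPM in its group. Their log2 fold changes of 3.92, 3.07 and 2.92 were 1.29, 1.27 and 1.31 without it. Without 15_5, 5 of 27 were higher and 0 lower, and without 10_1 10 were higher and 0 lower. On the left, 7 of 27 were higher and 1 was lower, against the 2.22% and 2.92% of all genes given above.

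Cardiac transcription factors were mostly placed above the midpoint without passing the test. Of 17 core factors, 16 had a positive log2 fold change, 3 were higher at an unadjusted p under 0.05, and the median was 0.33 (0.22 without 2_2). *Hand2*, a factor of the heart and limb mesoderm, was at 4.93, 7.27 and 14.4 CPM in heterotaxy against 2.03, 5.44 and 7.63 CPM (log2 0.66 ± 0.27). The highest value was that of 15_5, and the log2 fold change was 0.39 without it. *Gata4* was at 73.2, 136 and 167 CPM against 2.51, 103 and 188 CPM, and *Tbx20* at 89.2, 121 and 171 CPM against 11.3, 115 and 157 CPM, with 2_2 lowest for both. The ranges of both genes overlapped widely. *Nkx2-5* (77.4, 93.9 and 161 CPM against 21.4, 92.1 and 164 CPM) and *Isl1*, which marks progenitors of the second heart field (68.6, 97.5 and 104 CPM against 54.2, 94.0 and 121 CPM), had nearly equal medians. The log2 fold changes of *Gata4*, *Tbx20*, *Nkx2-5* and *Isl1* were 0.47, 0.40, 0.20 and −0.01, and those of the first 3 were 0.30, 0.24 and 0.10 without 2_2. *Tbx20* was also at 0.25 without 15_5, and *Nkx2-5* at 0.08 without 10_1. *Tbx20* and *Nkx2-5* changed sign with 15_5, 2_2 and 10_1 left out, and *Isl1* did under several settings. Without 15_5, 0 of 17 core factors were higher at an unadjusted p under 0.05.

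Progenitor lists held few genes past an unadjusted p of 0.05. In the anterior second heart field list (14 genes) 1 was higher, *Hand2*, and 1 was lower. The lower one was *Sema3c*, a guidance ligand of the outflow tract, at 15.7, 23.3 and 24.8 CPM against 20.3, 26.3 and 56.7 CPM (log2 −0.48 ± 0.20, and −0.30 without 10_1). Neither count was left without 15_5 (0 and 0), and 0 were lower without 10_1. *Tbx1*, which marks the pharyngeal part of this field, was at 15.2, 44.7 and 62.1 CPM against 6.57, 37.8 and 45.5 CPM on the right (log2 0.34, and 0.22 without 10_1, the lowest). Of 22 genes of cardiopulmonary and venous pole progenitors, 4 were higher (18.2%) and 2 lower, with 2 and 1 without 15_5 and 3 and 1 without 10_1. The 4 were *Nr2f2*, *Wt1*, *Bmp4* and *Ccn4*, the last of which the study picked on these samples, and without *Ccn4* 3 of 21 were higher. *Wt1*, a factor of the proepicardium and mesothelium, was at 9.86, 14.7 and 68.0 CPM against 1.01, 11.1 and 17.0 CPM. Its log2 fold change of 1.27 ± 0.49 was 0.58 without 15_5, which held the highest value.

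No gene of the differentiating heart passed the test. Of 25 sarcomere genes, 0 were past an unadjusted p of 0.05 in either direction (median 0.16). The median was 0.05 without 15_5, 0.00 without 2_2 and 0.06 without 10_1. With 15_5, 2_2 and 10_1 all left out it was −0.22, and 2 of 25 were lower at that p. *Tpm1*, an alpha-tropomyosin, was at 779, 970 and 1093 CPM against 456, 876 and 1283 CPM, and *Myh7*, a ventricular myosin, at 64.5, 93.9 and 224 CPM against 33.2, 137 and 351 CPM. Of 15 genes of heartbeat and calcium handling 0 were higher and 1 was lower, and of 15 targets of SRF and actin genes 1 was higher, or 0 with any 1 of the 3 libraries left out. Of 19 collagens 0 were past an unadjusted p of 0.05 in either direction. Against situs solitus mutants alone, which include 2_2, 4 of 19 were higher and 0 lower, where 4.22% and 2.86% of all genes were. *Col1a1* was at 120, 174 and 222 CPM in heterotaxy, at 91.3, 143 and 293 CPM in wild types of situs solitus and at 66.6, 115 and 144 CPM in its mutants. Heterotaxy embryos overlapped with both, and the log2 fold change was 0.31 ± 0.27 against the whole group and 0.89 ± 0.18 against its mutants. Of 23 genes of cardiac jelly and matrix 5 were higher (21.7%), against 2 without 15_5 and 1 without 15_5, 2_2 and 10_1. *Fbln5* and *Dcn*, an elastic fibre protein and a small proteoglycan, were highest in 15_5 (9.40 and 27.4 CPM), and their log2 fold changes of 1.50 and 0.80 were 0.52 and 0.35 without it. Of 27 guidance cues 2 were higher and 3 lower, with 2 and 0 without 15_5 and 1 and 0 without 10_1. *Efnb1*, an ephrin ligand at cell boundaries, was at 60.4, 85.2 and 99.0 CPM against 48.8, 63.7 and 101 CPM on the right (log2 0.36 ± 0.13) and had a log2 fold change of −0.31 on the left. *Ntn1*, a netrin of the floor plate, was at 4.38, 5.10 and 15.0 CPM against 3.80, 11.4 and 22.6 CPM (log2 −0.74).

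**Figure D4:**
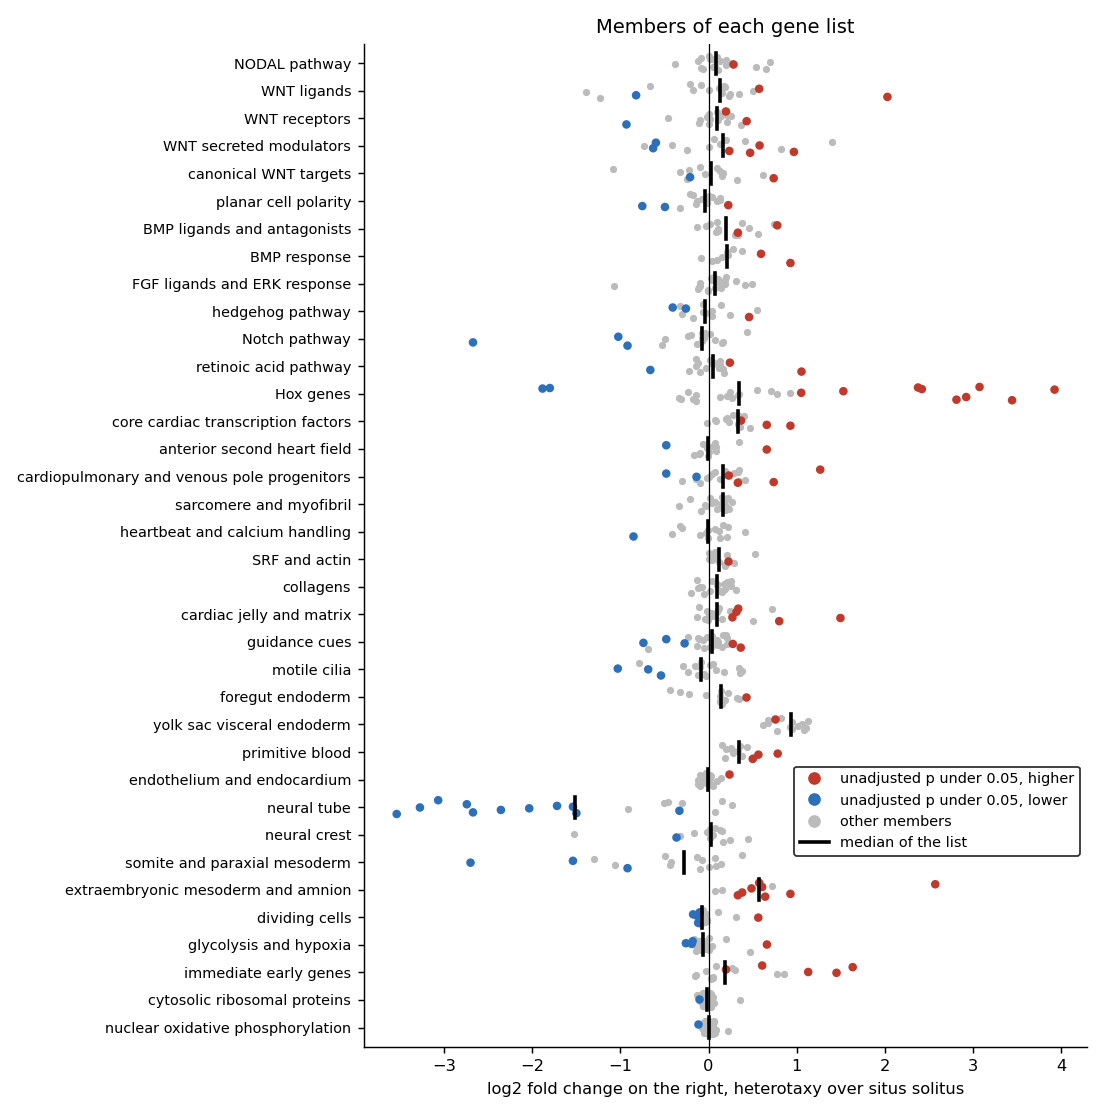
Right log2 fold change (heterotaxy over situs solitus, horizontal axis) of each tested member of 36 gene lists, with members at an unadjusted p under 0.05 in red (higher) or blue (lower), the other members in grey and the list median as a bar. The neural tube list lay lowest (median −1.52), the yolk sac visceral endoderm list highest (0.94), and no member passed after adjustment over all genes.

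The lists of neural tube, of yolk sac visceral endoderm and of extraembryonic mesoderm and amnion had the medians farthest from 0. Of 18 neural tube markers, 11 were lower at an unadjusted p under 0.05 (61.1%) and 0 were higher, and the median log2 fold change was −1.52. *Sox1*, a factor of neural progenitors, was at 0, 0.287 and 1.10 CPM in heterotaxy against 0, 1.87 and 5.64 CPM in situs solitus. The situs solitus embryos 1_6, 22_1 and 22_4 were as low as most heterotaxy embryos (0, 0.0273 and 0.0672 CPM), and the log2 fold change was −2.74 ± 0.92. *Dbx1*, *Olig2* and *Zic1*, factors of spinal cord domains and of the dorsal neural tube, had medians of 0.0457, 0 and 0.0511 CPM in heterotaxy against 0.604, 1.26 and 0.502 CPM, and 32_3 was their highest heterotaxy embryo. The summed level of the 18 markers was 146, 178 and 260 CPM in heterotaxy and 167, 263 and 615 CPM in situs solitus, the latter value in 10_1. Without 10_1, 9 of 18 were lower, and without 15_5, 2_2 and 10_1, 5 were lower and 1 higher (median −1.02). On the left, 1 of 18 was lower and the median was −0.20. The part that neural tissue in the samples took in other results was not tested.

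Of 16 markers of somite and paraxial mesoderm, 3 were lower (18.8%) and 0 higher, with a median of −0.27. *Myf5*, a determination factor of skeletal muscle, was at 0.0231, 0.580 and 2.85 CPM against 0.381, 3.18 and 15.9 CPM (log2 −2.70 ± 0.84). *Pax3*, which also marks the dorsal neural tube, was at 2.18, 3.98 and 15.4 CPM against 2.84, 14.1 and 64.7 CPM (log2 −1.54 ± 0.51). The highest values of both were those of 10_1, the groups overlapped, and 2 of 16 were lower without 15_5 or without 10_1 and 0 with 15_5, 2_2 and 10_1 left out. The summed level was 167, 224 and 319 CPM against 175, 279 and 542 CPM. Of 14 neural crest markers 1 was lower, *Ets1*, which is also expressed in endothelium, at 50.8, 75.8 and 123 CPM against 83.6, 99.4 and 133 CPM (log2 −0.37 ± 0.15).

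The listed extraembryonic markers had positive log2 fold changes on the right. Of 11 tested markers of extraembryonic mesoderm and amnion, 8 were higher at an unadjusted p under 0.05 (72.7%), 0 were lower, and the median log2 fold change was 0.57. This list was chosen with earlier results of these data known, so its count is no independent evidence. It holds *Postn*, *Hand1*, *Bmp4* and *Wnt6*, which the heart field mesoderm also expresses. *Ahnak*, a large scaffold protein at the plasma membrane, was at 108, 118 and 128 CPM against 25.1, 75.2 and 142 CPM (log2 0.64 ± 0.25). The heterotaxy embryos lay in a narrow band at the upper end of situs solitus. *Tdo2*, an enzyme of tryptophan breakdown, was at 3.31, 14.7 and 293 CPM against 1.28, 9.86 and 13.0 CPM, and its log2 fold change of 2.57 was 0.98 without 15_5, the highest. The summed level was 681, 772 and 1088 CPM in heterotaxy and 297, 544 and 801 CPM in situs solitus, highest in 15_5 and lowest in 2_2. Without 15_5, 4 of 11 were higher, and without 15_5 and 2_2 5 were. On the left, 1 of 11 was higher and the median was −0.08.

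The yolk sac visceral endoderm list had positive log2 fold changes in all 14 genes tested (median 0.94), of which 1 was at an unadjusted p under 0.05. *Cubn*, an endocytic receptor of this epithelium, was at 17.3, 24.6 and 64.7 CPM in heterotaxy, at 3.47, 19.9 and 55.8 CPM in wild types of situs solitus and at 0.617, 6.65 and 25.7 CPM in its mutants. *Amn*, its partner in the receptor complex, was at 13.8, 20.2 and 49.5 CPM against 1.29, 7.32 and 43.0 CPM. *Slc2a2*, a glucose transporter, was at 1.66, 4.04 and 18.0 CPM against 0.198, 0.825 and 11.7 CPM. The ranges of these genes overlapped. The summed level was 471, 708 and 1401 CPM in heterotaxy and 37.7, 383 and 1017 CPM in situs solitus, with medians of 658 CPM in its wild types and 336 CPM in its mutants. Among the mutants 2_2 was lowest, at 37.7 CPM against 270 to 533 CPM, and no fit of mutants alone left it out. Against situs solitus mutants alone, 7 of 14 were higher at an unadjusted p under 0.05, and on the left 0 of 14 were past it (median −0.30). The single gene past it against the whole group was lost without 2_2 or 10_1 (0 of 14).

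**Figure D5:**
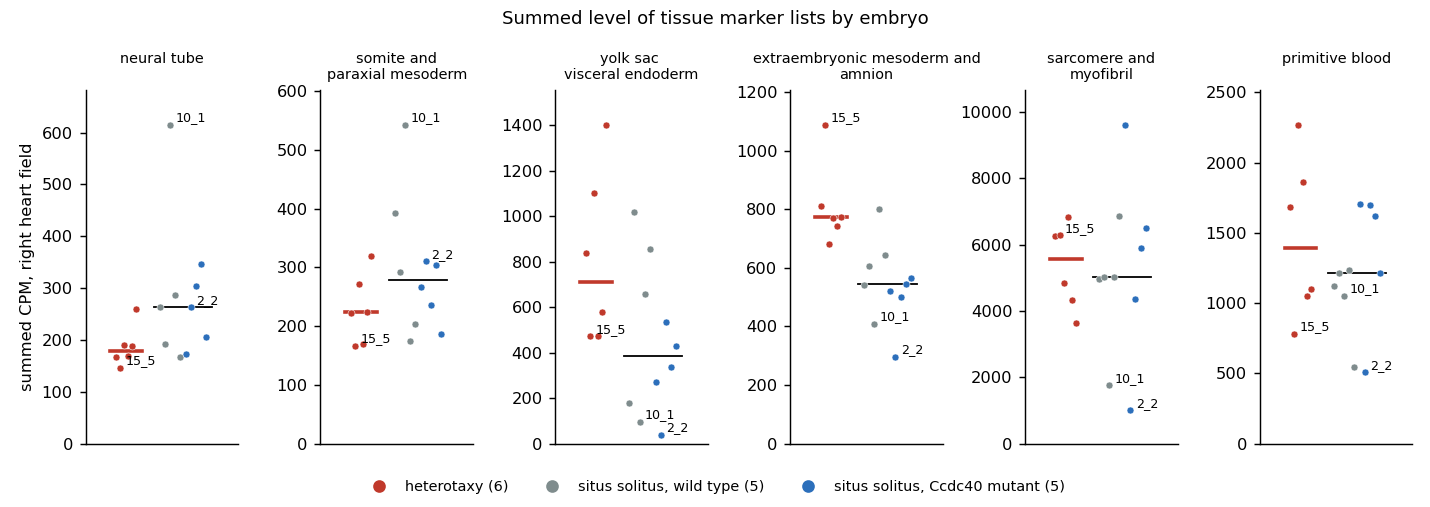
Summed right CPM of 6 tissue marker lists per embryo (vertical axes start at 0), with red for heterotaxy, grey for situs solitus wild types, blue for situs solitus mutants, bars at the medians of heterotaxy and of all situs solitus embryos, and names beside the 3 libraries that stood apart. The groups overlapped in every panel, and in proportion the medians were farthest apart for yolk sac visceral endoderm (708 against 383 CPM).

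Primitive blood markers had positive log2 fold changes in all 14 genes, with 3 higher (21.4%) and a median of 0.35. *Alas2*, the first enzyme of haem synthesis in erythroid cells, was at 10.9, 16.6 and 24.2 CPM against 7.70, 11.8 and 17.8 CPM (log2 0.50 ± 0.18). The other 2 were the alpha-globin genes *Hba-a1* and *Hba-a2* (log2 0.57 and 0.78), nearly identical copies between which reads can be divided, and 5 of 14 were higher without 15_5. The summed level of 779, 1391 and 2267 CPM against 508, 1213 and 1704 CPM overlapped. Of 16 endothelial and endocardial markers 1 was higher, the receptor kinase gene *Tek* (78.0, 85.6 and 96.5 CPM against 48.7, 73.3 and 93.2 CPM), and the list median was 0.00, and 0 were higher with any 1 of the 3 libraries left out. Of 15 foregut markers 1 was higher, the keratin gene *Krt8* (438, 548 and 615 CPM against 177, 423 and 575 CPM; log2 0.43 ± 0.18), and 0 were higher with 15_5 left out.

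Lists of cell state and motile cilia had medians from −0.08 for motile cilia (−0.14 without 15_5 or without 2_2) to 0.19 for immediate early genes (0.09 without 15_5). Of 22 genes of dividing cells, 5 were lower (22.7%) and 1 higher, with a median of −0.07 (−0.05 without 10_1), and 2 were lower without 15_5 or without 10_1. *Mcm6*, a subunit of the replicative helicase, was at 508, 557 and 566 CPM against 551, 586 and 772 CPM (log2 −0.17 ± 0.06). *Cdkn1a*, an inhibitor of the cell cycle, was the higher one, with 34.7 CPM in 15_5 and a log2 fold change of 0.56 that was 0.25 without it, when 0 of 22 were higher. Of 22 genes of glycolysis and hypoxia 3 were lower, *Pfkl* among them, and 1 was higher, *Ndrg1*, which reached 29.3 CPM in 15_5 (log2 0.66, and 0.15 without it, when 0 of 22 were higher). Of 18 immediate early genes 5 were higher (27.8%), against 2 without 15_5 and 3 without 2_2 or without 10_1. *Klf4* and *Fosl2* were highest in that embryo (17.0 and 44.4 CPM), and their log2 fold changes of 1.63 and 1.13 were 0.46 and 0.40 without it. Cytosolic ribosomal proteins (79 genes, median −0.01) and nuclear genes of oxidative phosphorylation (78 genes, median 0.01) had 1 gene each at an unadjusted p under 0.05, both lower. The ribosomal one was past it in neither fit without 15_5 or without 10_1, nor the other without 2_2 or without 10_1 (0 genes each). Of 19 motile cilia genes 3 were lower (2 with any 1 of the 3 libraries left out), with *Ccdc40* (log2 −0.54, and −0.12 against situs solitus mutants) and *Foxj1*, the master regulator of motile ciliogenesis (0.509, 0.909 and 2.01 CPM against 0.355, 1.61 and 4.68 CPM), among them.

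All heterotaxy embryos are mutants, so genotype is aligned in part with the group. With the 5 situs solitus mutants as the only reference, 0 of 23195 genes passed the adjusted threshold (0%) and 1641 were at an unadjusted p under 0.05, by edgeR. Between mutants and wild types within situs solitus, 0 of 22954 genes passed (0%) and 513 were at an unadjusted p under 0.05. On the left of the same 16 embryos, 0 of 23747 genes passed (0%) and 1221 were at an unadjusted p under 0.05. DESeq2 was not run for these 3 comparisons. They share libraries or embryos with the main one, and their values are therefore set side by side. *Cdc42ep2* was at 3.05 to 4.24 CPM in heterotaxy, at 1.86 to 2.99 CPM in situs solitus wild types and at 1.15 to 2.33 CPM in situs solitus mutants, with a log2 fold change of 1.05 ± 0.19 against the mutants and −0.07 on the left. *Hand1* was at 38, 57.2 and 102 CPM in situs solitus wild types and 1.56, 48.2 and 57.9 CPM in situs solitus mutants, against 75.7 to 125 CPM in heterotaxy. The summed level of the extraembryonic mesoderm and amnion markers, *Hand1* among them, had medians of 772 CPM in heterotaxy, 607 CPM in situs solitus wild types and 521 CPM in situs solitus mutants, and its part in *Hand1* was not tested.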

How the data were processed

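The authors trimmed adapters, removed duplicates, aligned paired reads of polyA-selected low-input libraries to GRCm39 with STAR and assigned them to genes with featureCounts (Subread 2.0.6), and the deposited values are raw counts per gene. The strand setting is not given in the sources used here, so overlapping and antisense genes cannot be told apart. Gene names and positions came from GENCODE M39 (56310 of 56953 identifiers matched). Genes were kept with the limits of the study (filterByExpr with a min.prop of 0.2, a large.n of 50, and minimum counts of 5 per library and 10 in total), scaled by TMM and tested with the quasi-likelihood test of edgeR 4.0.16 (R 4.3.3) with sex in the model and Benjamini-Hochberg adjustment over all genes. CPM values use TMM library sizes, fold changes are heterotaxy over situs solitus, SEs derive from the F statistic, and intervals are 95%. DESeq2 1.42.0 (local fit) and limma 3.58.1 were alternatives, as were another scaling, filters, a genotype term, males or mutants alone, all right libraries and each embryo left out in turn. The members, gene lists and tests were chosen with earlier results of these data known.

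The 8 genes named in each direction had the smallest unadjusted p among 11578 genes with a mean of at least 200 counts in either group, since none passed. From each list, members of at least 50 counts with the largest fold changes were eligible for naming, along with genes named in the text of the study. *Bmp4*, *Isl1*, *Nkx2-5*, *Hspa8* and genes without overlap were added after their values were seen. Genes on the sex chromosomes that mark sex are not named. Scripts were tested on simulated data. Left and right libraries of an embryo are paired by the labels, and their deviations from the group means correlated with a median r of 0.306 (lowest −0.0169, highest 0.762), 9 of 16 best with their own embryo. No 2 right libraries agreed within sampling noise (lowest chi-square per gene 13.1 over 120 pairs), and each embryo counted as 1 replicate.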

Additional observations from a re-analysis of the deposited data

Results flagged for a closer look

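A single embryo lay far from the rest of its group in 58 of 222 checks (111 named genes in 2 groups, Dixon's criterion). Chance flags about 1 in 20 groups of genes taken without regard to their values, a share that does not apply here, since many of these genes were named for their differences. Values are right CPM. Heterotaxy embryo 15_5 was apart in 21 genes. It was highest for the *Hox* genes *Hoxa9* (11.9), *Hoxa10* (114), *Hoxd9* (6.50) and *Hoxd10* (24.7), for the mesothelial and matrix genes *Wt1* (68.0), *Fbln5* (9.40) and *Dcn* (27.4), for the stress and immediate early genes *Hspb8* (70.5), *Cdkn1a* (34.7), *Ndrg1* (29.3), *Klf4* (17.0) and *Fosl2* (44.4), and for *Tac2* (43.1), *Tgm1* (8.54), *3830403N18Rik* (3.91), *Tnfaip8l3* (3.48), *Wnt10a* (5.42), *Aldh1a3* (6.55), *Tdo2* (293) and *Nccrp1* (198). It was lowest for *Gdf6* (2.42).

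Heterotaxy embryo 32_3 was apart in 11 genes, highest for members of the neural tube, Notch and somite lists (*Hes5*, 20.9; *Lfng*, 17.4; *Dbx1*, 1.10; *Olig2*, 1.28; *Zic1*, 0.663; *Sox1*, 1.10; *Myf5*, 2.85) and for *Sfrp2* (33), *Foxj1* (2.01) and *Misp3* (12.4), and lowest for *Isl1* (68.6). Situs solitus wild type 10_1 was apart in 13 genes, highest for *Hes5* (116), *Dll1* (30.9), *Dbx1* (13.7), *Zic1* (6.97), *Myf5* (15.9), *Pax3* (64.7), *Fzd10* (10.8), *Sfrp2* (70.9), *Porcn* (33.3), *Crabp2* (729), *Sema3c* (56.7) and *Mcm6* (772), and lowest for *Tbx1* (6.57).

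The remaining flags were scattered. Heterotaxy embryo 19_4 was highest for *Lefty2* (3.13), *Gal* (5.72) and *Nkx2-5* (161) and lowest for *Mcm3* (446). In situs solitus, 17_7 was highest for *Postn* (60.7), *Dcn* (11.7) and *Efnb1* (101), and 22_4 for *Pitx1* (8.38) and *Aldh1a3* (1.88). Single genes were highest in 19_6 (*Lefty2*, 2.39), 2_2 (*Wnt16*, 2.40), 22_1 (*Hoxa9*, 0.929) and 8_1 (*Slc2a2*, 11.7).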

How the results depend on the processing

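The count of 0 genes at an adjusted p under 0.05 by edgeR was 15 with DESeq2 and 0 under every other setting run. Among these were another scaling, no filter (0 of 41539 genes) or a stricter one (0 of 16891), no sex term, males alone, mutants alone, a genotype term and all 21 right libraries. Leaving out 1 embryo at a time gave 0 to 0 genes over 16 fits (smallest adjusted p 0.303) and 1457 to 2218 genes at an unadjusted p under 0.05. After the data were seen, 15_5 and 2_2 were left out together (0 genes, 1461 unadjusted), and 10_1 with them (0 genes, 1225 unadjusted). In the paired fit with the embryo as a replicate block over both sides (limma-voom), 0 of 25381 genes passed (1970 unadjusted, correlation within embryos 0.227). With 0 genes passing in either fit, no call of the 111 named genes could change. Counts over gene lists were not run with it.

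*Isl1* (right level, log2 −0.01) changed sign in males alone (0.017) and with the block (0.0077), and ranged from −0.076 to 0.051 when 1 embryo was left out. With 15_5, 2_2 and 10_1 left out, *Tbx20* was −0.020 and *Nkx2-5* −0.050. The causes were not tested. Of 3090 fits of single genes over the 111 genes, 3065 kept direction and side of the threshold, and the 15 DESeq2 calls were the ones that crossed it. The other settings called 0 genes, so the side could not change there. In addition, 16 of the refits left out only 1 library, so the count is no measure of robustness. Marker lists were also compared by a median over members in place of the summed level. The log2 difference of immediate early genes was then 0.37 in place of 0.12, of foregut endoderm 0.03 in place of 0.30, of cardiopulmonary progenitors 0.31 in place of 0.07, of sarcomere genes 0.42 in place of 0.27, of the neural tube −0.81 in place of −0.51, of the anterior second heart field −0.04 in place of 0.00, and of endothelium −0.04 in place of 0.01.

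Only 6 heterotaxy embryos, 3 libraries that stood apart and levels under 2 CPM for many ligands and markers limit the precision.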

Other observations

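For some of the genes highest in 15_5, values of both sides were compared. *Nccrp1* was at 198 CPM on the right and 162 on the left of 15_5, and *Hoxa10* at 114 and 90.2. The other 15 right libraries were at 0.392 to 25.4 CPM for *Nccrp1* and 0.392 to 13.4 CPM for *Hoxa10*. In 2_2 the sides differed, with *Tbx20* at 11.3 CPM on the right and 38.9 on the left and *Nkx2-5* at 33.6 and 107 CPM. Its left level of *Tbx20* was still below that of the other left samples (lowest 69.5 CPM). That of *Nkx2-5* was within their range (42.9 to 155 CPM).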
